A study of Mus musculus with 10 samples.

Results

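Transcripts of 8 genes that mark the meninges, the membranes around the brain, were read on microarrays of mouse hippocampus. The genes were Col1a1, Col1a2, Col3a1, Dcn, Lum, Slc6a13, Slc13a4 and Ptgds. They were taken from every probe set whose platform annotation gave one of these symbols and no other, which was 14 of the 45101 probe sets on the array, for 8 of the 18193 genes it named this way. The mice were 5 High Exploration and 5 Low Exploration animals, all inbred female Balb c/J from Jackson with a common birth date. They were taken from the top and bottom of a larger set ranked by a composite of open-field measures. The test sessions were spread over weeks. Their age at dissection and any treatment were not given in the sources used here. Each mouse gave 1 array of whole hippocampus. Groups and tissue follow the sample labels, because the design text describes handled pups instead.

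The leptomeninges are sheets of fibroblasts that lie against the brain surface, fold into the fissure of the hippocampus and follow its vessels inward. Their fibroblasts build fibrils of type I and type III collagen, coat them with small leucine-rich proteoglycans and carry transporters for solutes of the cerebrospinal fluid. They also make prostaglandin D synthase, the product of Ptgds, which converts prostaglandin H2 to prostaglandin D2 and, once secreted, carries small lipophilic molecules in the cerebrospinal fluid. Oligodendrocytes and the choroid plexus make Ptgds as well. In a dissected hippocampus the level of these transcripts can therefore differ with how much membrane came along, and in bulk tissue fewer cells of a type and less RNA per cell cannot be told apart.

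Ptgds was the only member whose probe sets both read higher in High Exploration mice by more than 1 on the log2 scale, and no probe set of any member passed the threshold. Values are MAS 5.0 signals on a linear scale, compared as log2 with limma over the 22518 probe sets with a mean log2 signal above the median of all means (7.43, a signal of 172), at a Benjamini-Hochberg adjusted p of 0.05. Of the 14 member probe sets 10 were above that filter and 4 were below it, namely 1 each of Col1a1, Col1a2 and Col3a1 and the only one of Slc6a13. Members below it are given from a fit over all 45037 probe sets that are not controls. In the filtered fit 0 of 10 member probe sets passed, where 0.0133% of all tested probe sets did, and 1 was higher and 1 was lower at an unadjusted p under 0.05, where 9.67% and 20.5% of all tested probe sets were. In 0 of the 10 did the groups not overlap, where they did not in 8.83% of all tested probe sets (2.14% higher and 6.69% lower). In the fit with no filter 0 of 14 passed (0.0711% of all probe sets), 1 was higher and 0 were lower at an unadjusted p under 0.05 (4.48% and 16.8%), and 0 had groups that did not overlap (6.01%, of which 1.17% higher and 4.84% lower). Of the 10 probe sets 4 had differences above 0, beside 38.1% of all tested probe sets, and their median difference was −0.17, beside −0.31 over all tested probe sets. Over all 14 members the median was −0.31, beside −0.47 over all probe sets. After each array was centred on its median signal, 6 of the 10 were above 0, beside 59.9% of all tested probe sets, and the medians were 0.37 for the members and 0.23 for all tested probe sets. Median signals of the arrays were 143 to 205 in High Exploration and 227 to 272 in Low Exploration, and small differences therefore change sign with the scaling.

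**Figure D1:**
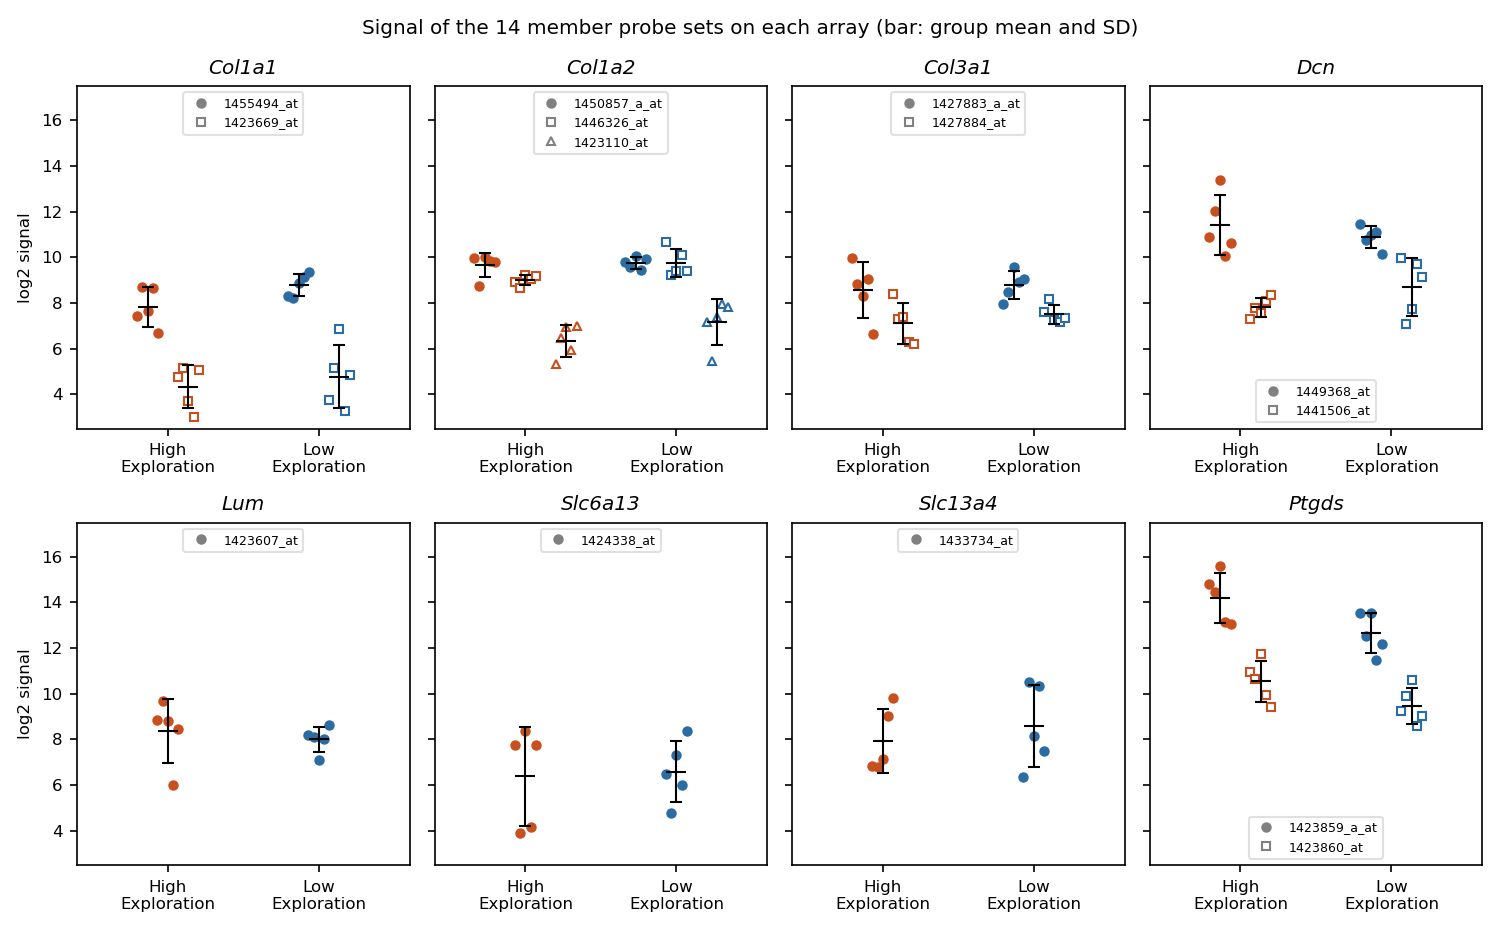
Log2 signal (vertical axis) of the 14 member probe sets on each array, High Exploration at the left and Low Exploration at the right of each panel; each point is 1 mouse, filled points are the probe set with the highest mean, and bars give the group mean and SD. The leading Ptgds probe set spans 8453 to 48815 in High Exploration and 2852 to 11833 in Low Exploration (linear signal), the groups overlap in every panel, and Slc13a4 and Slc6a13 spread widely within both groups.

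Signals of different probe sets are not on a common scale, so genes foreign to the hippocampus serve only as a guide to dim signal. The 44 olfactory receptor probe sets, whose genes serve the sensory neurons of the nose, had a median signal of 86.1, and 25% of them passed the filter. The leading probe set of a gene, the one with the highest mean, had a mean log2 signal above 93.2% or more of them for 7 of the 8 genes. Slc6a13 lay above only 54.5% of them, and the weaker probe sets of Col1a1, Col1a2 and Col3a1 lay above 9.09%, 59.1% and 75.0%. Slc6a13 and these probe sets thus read within the range of genes foreign to the tissue, and a difference in them may not be detectable.

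On its leading probe set, 1423859_a_at, the signals were 28434, 22218, 48815, 8951 and 8453 in High Exploration replicates 1 to 5, against 11718, 5955, 11833, 2852 and 4669.7 in Low Exploration replicates 1 to 5. High Exploration replicates 1, 2 and 3 were above every Low Exploration array, while replicates 4 and 5 lay among them, so the groups overlapped.

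The mean log2 signal of this probe set was 14.20 ± 1.09 in High Exploration, against 12.65 ± 0.88 in Low Exploration mice (SD, n = 5 each), a 2.92-fold difference. The difference of 1.55 (log2, SE 0.56, 95% interval 0.34 to 2.75) did not pass (limma adjusted p = 0.10), although an exact two-sided permutation test of this probe set alone gave p = 0.0476, with 5 of 5 High Exploration arrays above the Low Exploration median. The adjusted p over the alternatives ran from 0.0539 after median centring to 0.933 with the level of the hybridisation controls, bacterial transcripts added before hybridisation, as a covariate. With that covariate the difference was 0.31, and with quantile normalisation it was 0.99. Hybridisation controls had a mean log2 signal of 13.2 to 14.0 in High Exploration and 13.9 to 14.7 in Low Exploration, and the part of this technical level in the difference was not tested apart from that model. The poly-A controls, bacterial transcripts with a tail, had 11.8 to 13.1 in High Exploration and 13.6 to 14.7 in Low Exploration (mean log2 signal). They did not overlap between the groups, and their part in any difference given here was not tested.

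The other Ptgds probe set, 1423860_at, followed the first one from mouse to mouse. Its signals were 1975, 1579.9, 3417, 989.7 and 686 in High Exploration, against 609.9, 943, 1570.2, 384 and 520.2 in Low Exploration. The same 3 High Exploration arrays stood above all Low Exploration arrays. The difference was 1.07 (log2, SE 0.50, limma adjusted p = 0.168). After the group means were removed, the log2 signals of both Ptgds probe sets had a Pearson r of 0.870 over the 10 arrays, so the spread between mice was read alike by separate probes.

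Type I collagen, the main fibril of the membranes, is a trimer of the chains encoded by Col1a1 and Col1a2, and both chains had differences below 0 on all their probe sets as deposited, of which 1455494_at, 1446326_at and 1423110_at stayed below 0 after median centring while 1450857_a_at and 1423669_at did not. Col1a1 on its leading probe set, 1455494_at, had signals of 172, 414, 198, 407 and 103 in High Exploration and of 319, 301, 476, 554 and 649.7 in Low Exploration. High Exploration arrays were all below the Low Exploration median, and 3 of them were below every Low Exploration array. The log2 difference was −0.96 (SE 0.44, limma adjusted p = 0.162), and −0.42 after median centring. Its other probe set, 1423669_at, read between 7.91 and 35.1 in High Exploration and between 9.69 and 114 in Low Exploration, with a difference of −0.44 (limma adjusted p = 0.725 in the fit with no filter).

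The steadiest of the 14 member probe sets within groups was the leading one of Col1a2, 1450857_a_at. Its signals were 990.3, 424, 1029, 901 and 889 in High Exploration, against 888, 765, 1065, 689 and 979 in Low Exploration. Apart from High Exploration replicate 2, at 424, the High Exploration arrays lay within the Low Exploration range, and the difference was −0.10 (log2, SE 0.34, 95% interval −0.84 to 0.64, limma adjusted p = 0.861). Without that replicate it was 0.13. The within-group SD of 0.415 was smaller than that of all but 10.8% of the tested probe sets.

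The probe set 1446326_at of Col1a2 read differently. Its signals were 488, 404, 593, 529.6 and 582 in High Exploration and 1621, 591, 679, 1107 and 685 in Low Exploration, so that 4 Low Exploration arrays stood above all High Exploration arrays. The difference was −0.75 (log2, SE 0.36, limma adjusted p = 0.170; exact permutation p = 0.0159 for this probe set alone), and −0.22 after median centring. The weakest Col1a2 probe set, 1423110_at, gave −0.83 (SE 0.55, limma adjusted p = 0.384 in the fit with no filter). The 3 probe sets had r between 0.009 and 0.364 with each other over the 10 arrays after group means were removed, so they did not read the same differences between mice.

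Type III collagen, made of the Col3a1 chain alone and found with type I in fibrils of membranes and vessel walls, varied more. Signals of 1427883_a_at were 1014, 459, 318, 531 and 99.9 in High Exploration, against 247, 361, 769, 484 and 527 in Low Exploration. The highest and the lowest of all 10 arrays were both High Exploration mice, replicates 1 and 5. The difference was −0.23 (log2, SE 0.55, limma adjusted p = 0.793), and 0.25 without replicate 5 of High Exploration. The other probe set, 1427884_at, gave −0.39 (SE 0.48, limma adjusted p = 0.649 in the fit with no filter) and had an r of 0.472 with the first.

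**Figure D2:**
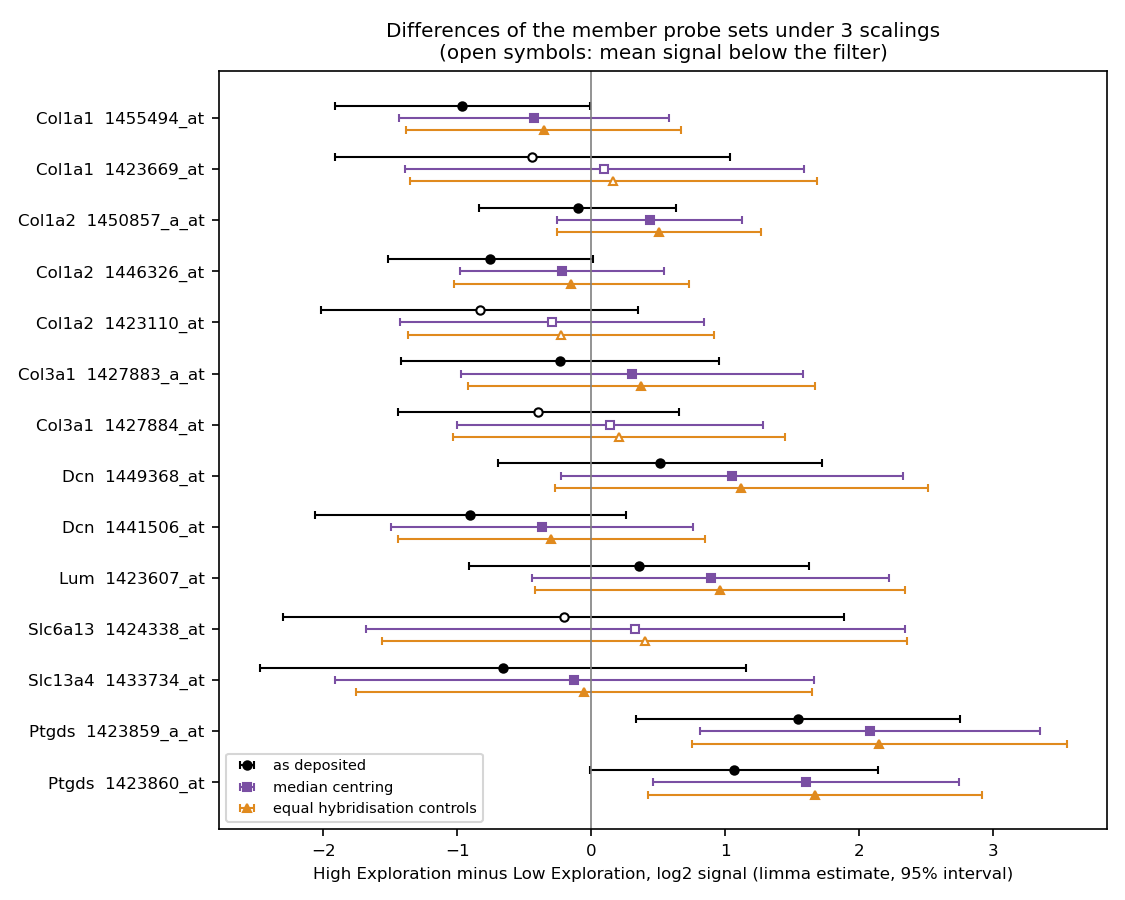
Difference between High and Low Exploration in log2 signal (horizontal axis, limma estimate with its 95% interval) for each member probe set (vertical axis), under 3 scalings, namely the deposited one, centring on the median and equal hybridisation controls. The intervals of the leading Ptgds probe set stay above 0 under these 3 scalings (1.55 as deposited), whereas Col3a1 and the leading Col1a2 probe set change sign. Quantile normalisation and the covariate of hybridisation controls, under which the Ptgds difference was smaller than as deposited, are not drawn.

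Decorin (Dcn) and lumican (Lum) are small leucine-rich proteoglycans that bind collagen fibrils and set their width, and their genes are direct neighbours on the same chromosome in the RefSeq annotation. Dcn on 1449368_at had signals of 1905, 4205, 10793, 1073 and 1601 in High Exploration and 2819, 1749, 1987, 2217 and 1147 in Low Exploration. High Exploration replicates 3 and 2 were the highest of the 10 arrays and replicate 4 the lowest, so the High Exploration mice enclosed the other group. The difference was 0.52 (log2, SE 0.56, limma adjusted p = 0.541), and it was 0.018 without High Exploration replicate 3.

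The other Dcn probe set did not follow. On 1441506_at the signals were 157, 220.5, 186, 269 and 327 in High Exploration, against 987, 133, 211, 841 and 555 in Low Exploration, where replicates 1, 4 and 5 stood above all High Exploration arrays. It gave −0.90 (log2, SE 0.54, limma adjusted p = 0.264), and its r with the leading probe set was −0.038. The direction of Dcn thus depends on the probe set. Lum had signals of 462, 814, 453, 64.4 and 355 in High Exploration and of 290.0, 279.8, 138, 256 and 393 in Low Exploration. With 3 High Exploration arrays above all Low Exploration arrays and replicate 4 below them, the difference was 0.36 (log2, SE 0.59, limma adjusted p = 0.693), and 0.95 without that replicate.

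Slc13a4, a sodium-coupled sulphate carrier, had signals of 115, 109.7, 142, 517 and 908 in High Exploration and 82.9, 1479, 284, 1302 and 183 in Low Exploration. High Exploration replicates 4 and 5 and Low Exploration replicates 2 and 4 read at 517 or more, while the other 6 arrays read at 284 or less, so each group held both kinds of array. The within-group SD was 1.62 on the log2 scale, more than that of 98.0% of the tested probe sets, and the difference was −0.66 (SE 0.84, 95% interval −2.48 to 1.15, limma adjusted p = 0.604).

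Slc6a13, a carrier of GABA and taurine also called GAT2, had signals of 216, 14.7, 328, 18.1 and 219 in High Exploration and 90.6, 27.8, 160.3, 63.9 and 328 in Low Exploration. The difference was −0.21 (log2, SE 0.97, limma adjusted p = 0.916 in the fit with no filter). At these signals, on some arrays well under the olfactory receptor median, the interval of −2.30 to 1.89 sets little bound.

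The members were also read array by array, as deviations from the mean of their group. The part of carried-over membrane in the group differences was not tested. Of the 8 leading probe sets, between 4 and 5 were above their group mean on each High Exploration array, and 4, 2, 6, 4 and 5 were on Low Exploration replicates 1 to 5. On High Exploration replicate 3, with the highest Ptgds and Dcn signals of the 10 arrays, Slc6a13, Lum and Col1a2 were also above their group means, at 1.97, 0.46 and 0.35 on the log2 scale, while Slc13a4, Col3a1 and Col1a1 were at −0.78, −0.25 and −0.19. Low Exploration replicate 3 was above its group mean for 6 members, of which Col3a1 deviated by 0.79 and Ptgds by 0.88, but Lum deviated by −0.90.

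**Figure D3:**
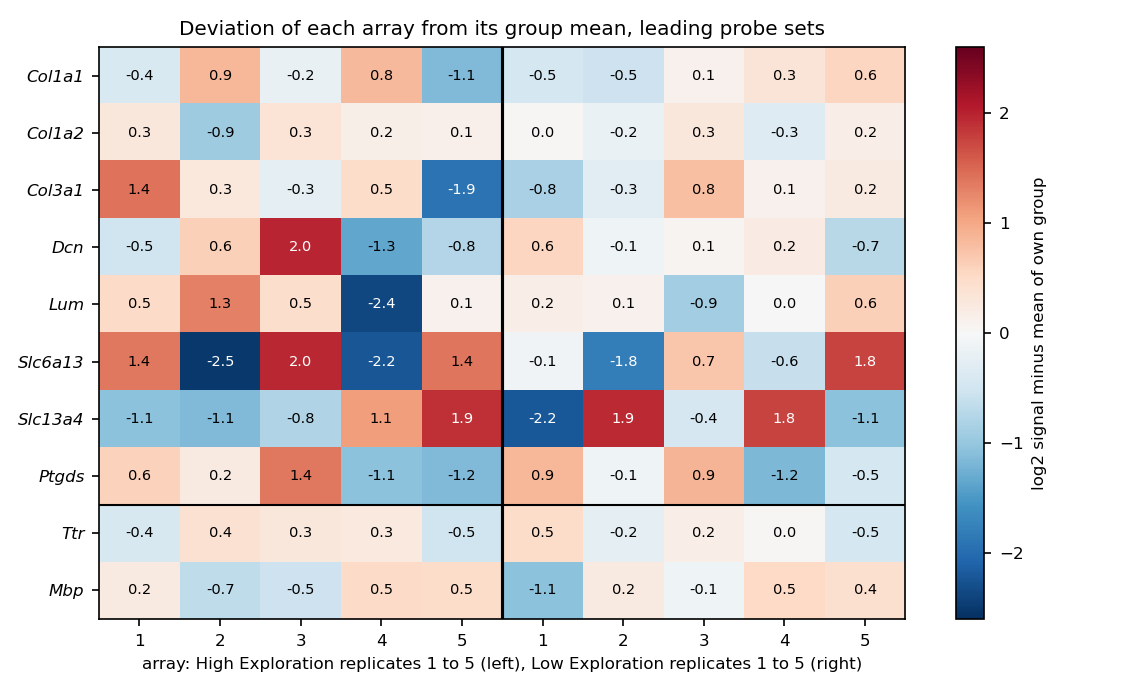
Log2 signal of each leading probe set minus the mean of its own group (colour and printed value) on each array, High Exploration replicates at the left and Low Exploration replicates at the right, with Ttr (choroid plexus) and Mbp (oligodendrocytes) in the lowest rows. No array is high in all members: on High Exploration replicate 3 Dcn is at 1.99 and Ptgds at 1.38 while Slc13a4 is at −0.78.

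Pairs of members were compared by their log2 signals with group means removed, over all 10 arrays. Among 44 pairs, 28 between members and 16 of a member with Ttr or Mbp, 6 had an exact permutation p under 0.05 and 0 passed after adjustment over the 44. The median r of the 28 member pairs was −0.10 with 11 above 0 as deposited, 0.026 with 15 above 0 after median centring and 0.17 with 17 above 0 at equal hybridisation controls, so its sign turned with the scaling. The collagen chains had r of −0.391 for Col1a1 and Col1a2, 0.580 for Col1a1 and Col3a1 and 0.0452 for Col1a2 and Col3a1. Ptgds had r of −0.138, 0.219 and 0.258 with Col1a1, Col1a2 and Col3a1 over the 10 arrays, in the order named. At equal hybridisation controls these were 0.200, 0.666 and 0.456 (exact permutation p = 0.674, 0.0622 and 0.282), so how far Ptgds went with the collagens depended on the scaling.

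Of the member pairs, Dcn and Ptgds had r = 0.700 (n = 10, exact permutation p = 0.0493, adjusted p = 0.362) and a Spearman rho of 0.588 (exact permutation p = 0.10). Leaving out the 2 arrays with the most extreme Dcn gave an r of 0.418, so the relation rests partly on those arrays. Ptgds and Slc13a4 had r = −0.732 (n = 10, exact permutation p = 0.0297, adjusted p = 0.262) with a rho of −0.539 (exact permutation p = 0.137). The r was below 0 in both groups (−0.871 in High Exploration, against −0.638 in Low Exploration). On Low Exploration replicate 5, however, both genes were below their group mean, Ptgds at −0.46 and Slc13a4 at −1.07. Col1a2 and Slc6a13 had r = 0.718 (n = 10, exact permutation p = 0.00694, adjusted p = 0.223) with a rho of 0.733 (exact permutation p = 0.0265), with r of 0.667 without the 2 farthest arrays. Each fails the adjustment, and at equal hybridisation controls these 3 pairs had r of 0.793, −0.594 and 0.519 (exact permutation p = 0.0219, 0.0753 and 0.189).

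The other tissues that make Ptgds were read on the same arrays. Transthyretin (Ttr), the marker secretory protein of the choroid plexus, which lies along the hippocampus in the ventricle, had signals of 19275, 33651, 31356, 30760.1 and 17884 in High Exploration and 24239, 14787, 19599.7, 17856 and 12578 in Low Exploration. The difference was 0.57 (log2, SE 0.34, limma adjusted p = 0.264). Over arrays Ptgds and Ttr had r = 0.418 (n = 10, exact permutation p = 0.262, adjusted p = 0.780). Of the 16 choroid plexus markers 6 passed the filter, with a summed signal of 21610 to 35334 in High Exploration and 17211 to 29296 in Low Exploration, of which Ttr was 86.9%. The sum is thus mostly Ttr. Of these 6 markers 3 were above 0 (Ttr, Sostdc1 at 0.17 and Cab39l at 0.068). The other 3 were below 0 (Clic6 at −1.19, Kcnj13 at −0.71 and Folr1 at −0.27). Their mean log2 signal was 9.27 to 10.1 in High Exploration and 9.59 to 10.2 in Low Exploration. Among the 8 below the filter were Otx2, Kl and Aqp1, which mark this epithelium. Its part in the Ptgds difference was not tested.

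Myelin basic protein (Mbp), the main marker of oligodendrocytes here, had signals of 73336, 39306, 42856, 88356 and 86701 in High Exploration and 33270.2, 81415, 64229.9, 99248 and 93019.5 in Low Exploration, with a difference of −0.15 (log2, SE 0.40, limma adjusted p = 0.815). Ptgds tended to be low on the arrays where Mbp was high, with r = −0.771 (n = 10, exact permutation p = 0.0189, adjusted p = 0.262), a Spearman rho of −0.830 (exact permutation p = 0.00903), and r of −0.711 without the 2 arrays farthest from the median of Ptgds. On High Exploration replicate 1, however, both were above their group mean, Ptgds at 0.60 and Mbp at 0.23. Dcn and Mbp likewise had mostly opposite deviations (r = −0.726, n = 10, exact permutation p = 0.0101, adjusted p = 0.223), and Slc13a4 tended to go with Mbp (r = 0.727, n = 10, exact permutation p = 0.0282, adjusted p = 0.262). At equal hybridisation controls the 3 values of r were −0.601, −0.577 and 0.718 (exact permutation p = 0.0774, 0.0717 and 0.0378). Mbp was the only oligodendrocyte gene in these pairs. Cnp read 6101, 7155, 16889, 3659 and 4649 in High Exploration and 7198, 5141, 6380, 3524 and 5203 in Low Exploration. Like Ptgds, it was highest on High Exploration replicate 3 and lowest on Low Exploration replicate 4. Mal read 2079, 1219, 2569, 6230 and 6304 in High Exploration, higher on replicates 4 and 5 than on 1 to 3, as Mbp was. In Low Exploration Mal read 2344, 6203, 5505, 3817 and 6216. There replicate 4, with the highest Mbp, was below replicates 2, 3 and 5 in Mal. Neither Cnp nor Mal was among the 2 genes of smallest p in this list. The sum over the 9 of 11 oligodendrocyte markers above the filter ranged from 58756 to 110500 in High Exploration and from 50188 to 113655 in Low Exploration. The mean of their log2 signals was 11.1 to 11.4 in High Exploration and 10.7 to 10.8 in Low Exploration and did not overlap, whereas the sums did. Of the 9 genes 6 were above 0, 3 were below (Mal at −0.58, Opalin at −0.17 and Mbp) and 0 passed. The part of these cells in the Ptgds difference was not tested.

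**Figure D4:**
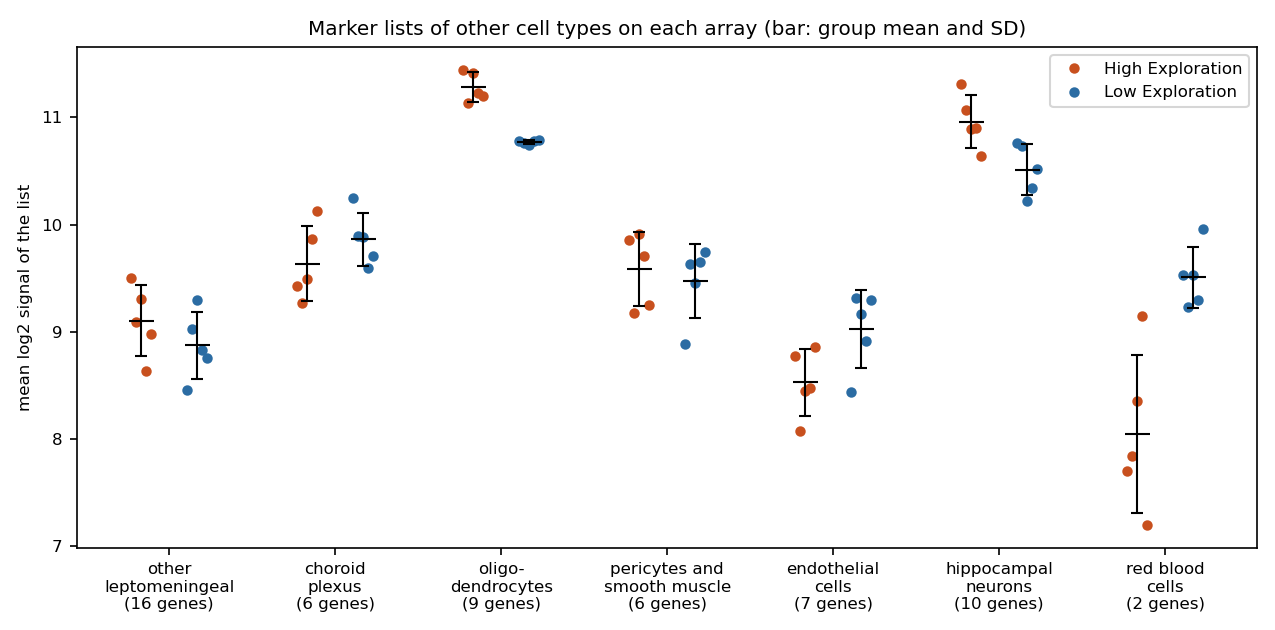
Mean log2 signal (vertical axis) over the genes of each marker list that passed the filter (horizontal axis), 1 point per array, with group mean and SD as bars. The groups do not overlap in the oligodendrocyte list (11.1 to 11.4 in High Exploration, 10.7 to 10.8 in Low Exploration) and in the red blood cell list (7.20 to 9.15 in High Exploration, 9.23 to 9.96 in Low Exploration), and they overlap in the other 5 lists. Signals are as deposited, and the red blood cell list held 2 tested genes. Groups did not overlap in 8.83% of single tested probe sets, and no such share was computed for means of lists.

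A ratio of 2 probe sets on one array is free of the constant by which that array was scaled. It is not free of the spread of log signals on an array, which the study reports to be wider in more active mice. The part of that spread in the ratios was not tested. The log2 ratio of Ptgds to another leading probe set was therefore compared between the groups for the other 7 members, Ttr and Mbp, a comparison chosen after the data were seen. The ratios share Ptgds, so their common sign is that of Ptgds and adds nothing to it, and 0 of 9 passed after adjustment (lowest adjusted p = 0.143). Ptgds over Col1a1 was 6.38 ± 1.37 in High Exploration, against 3.87 ± 1.21 in Low Exploration (log2, SD, n = 5 each, exact permutation p = 0.0238). Ptgds over Col3a1 was 5.63 ± 1.26 in High Exploration, against 3.85 ± 1.13 in Low Exploration (log2, SD, n = 5 each, exact permutation p = 0.0397), and over Col1a2 the groups differed by 1.64 (exact permutation p = 0.0556). After quantile normalisation the differences over Col1a1, Col3a1 and Col1a2 were 1.53, 0.88 and 0.91 (exact permutation p = 0.0952, 0.254 and 0.167).

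Other genes of leptomeningeal fibroblasts were read on the same arrays. Of 28 listed genes besides the members, 16 passed the filter, 8 were above 0 and 8 below, and 0 passed the threshold, with a median of 0.045 beside −0.31 over all tested probe sets, of which 38.1% were above 0. After median centring 14 of the 16 were above 0, beside 59.9% of all tested probe sets, and at equal hybridisation controls 15 were, beside 62.9%. With quantile normalisation 11 were, beside 49.7%, so the count depended on the scaling. Each of the 16 genes was read on its probe set of highest mean, whereas these shares cover all tested probe sets. The summed signal of the 16 genes was 13239 to 22927 in High Exploration and 6726 to 13806 in Low Exploration. The list was led by Zic1, a transcription factor of meningeal cells that some neurons express too, with 31.0% of the sum. The difference of Zic1 was 1.86 (log2, SE 0.48, limma adjusted p = 0.0642) and that of Ogn, the proteoglycan osteoglycin, was 1.85 (SE 0.49, limma adjusted p = 0.0652). Ogn read 2953, 2607, 2218, 714 and 596 in High Exploration and 376, 516, 288, 537 and 393 in Low Exploration. Zic1 read 10887.5, 4567, 4058, 7781 and 5190 in High Exploration and 792, 3471, 1197, 3228 and 1223 in Low Exploration. The groups did not overlap in either gene, as in 2.14% of all tested probe sets (higher). Both genes were named for the smallest p of the list, so their lack of overlap follows from that choice and adds no support. High Exploration replicates 1 to 3, highest in Ptgds, were highest in Ogn. In Zic1, however, replicates 4 and 5 were above replicates 2 and 3, and replicate 3 was the lowest High Exploration array. Outside this list, High Exploration replicates 1 to 3 were also above every other array in Slc17a6, a thalamic marker (1306, 2173 and 1770). The same held for Spink8, a marker of hippocampal neurons (3882, 5393 and 10388). The split seen in Ogn was thus not particular to meningeal genes.

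Genes that act with the members were read from further lists. Of 18 measured genes for collagen partners and processing 11 were tested and 0 passed, with Adamts3, a protease that trims procollagen, at 1.20 (log2, limma adjusted p = 0.0799) and Lox, which crosslinks collagen, at −1.13 (limma adjusted p = 0.101). The small leucine-rich proteoglycans besides Dcn and Lum gave 0 of 6, 3 on each side of 0, with Epyc, epiphycan of cartilage, at −1.02 (limma adjusted p = 0.101). Of the 6 collagen receptors tested 0 passed, with Lair1, an inhibitory receptor of leukocytes, at −1.09 and Ddr1, a receptor kinase for collagen, at 0.86 (limma adjusted p = 0.101 and 0.226). Enzymes and receptors of prostaglandins gave 0 of 3, the receptors of prostaglandin D2, Ptgdr2 and Ptgdr, being at −0.53 and −0.21 (limma adjusted p = 0.482 and 0.701). The taurine carrier Slc6a6 was the only tested transporter of its list, at 1.12 (limma adjusted p = 0.147), and of 4 tested carriers related to Slc13a4 0 passed, with Slc13a5, a citrate carrier, at −0.73 (limma adjusted p = 0.201) and Slc26a11, a sulphate carrier, at −1.29 (limma adjusted p = 0.204).

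Markers of other cells were set beside these results, and 0 of the genes tested passed in each list. The share above 0 over all tested probe sets moved with the scaling (38.1% as deposited, 59.9% once centred on the median and 62.9% with hybridisation controls made equal). Of 7 endothelial markers 1 was above 0 as deposited, 3 were once centred on the median and 4 with hybridisation controls made equal, with Kdr at −1.39 and Flt1, like Kdr a receptor for VEGF, at −1.68 as deposited (limma adjusted p = 0.0795 and 0.130). Pericyte and smooth muscle markers were above 0 for 4 of 6, with Pdgfrb, the receptor that marks pericytes, at 1.27 and Cspg4 at −1.30 (limma adjusted p = 0.0776 and 0.119). The markers of hippocampal neurons were above 0 for 7 of 10, with Neurod6 at 1.18 and Spink8 at 2.22 (limma adjusted p = 0.0726 and 0.112), and their summed signal was 28877 to 37077 in High Exploration and 22004 to 28219 in Low Exploration, without overlap, whereas the mean log2 signal of the list overlapped, at 10.6 to 11.3 in High Exploration and 10.2 to 10.8 in Low Exploration. Thalamic markers, from the tissue beneath the hippocampus, gave 2 of 5 above 0, with Rora at −1.20 and Prkcd at −0.72 (limma adjusted p = 0.193 and 0.263). Both tested haemoglobin genes were below 0, Hba-a2 at −1.71 and Hbb-b2 at −1.21 (limma adjusted p = 0.0594 and 0.102), with a sum of 305 to 1402 in High Exploration and 1279 to 2095 in Low Exploration, which overlapped, and a mean log2 signal of 7.20 to 9.15 in High Exploration and 9.23 to 9.96 in Low Exploration, which did not. The part of blood in the members' differences was not tested. Among oligodendrocyte genes Cldn11, a claudin of myelin, was at 1.79 and Ugt8a, an enzyme of galactolipid synthesis, at 1.39 (limma adjusted p = 0.0581 and 0.0846). Clic6 and Kcnj13, both of the choroid plexus, were at −1.19 and −0.71 (limma adjusted p = 0.225 and 0.230).

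The genes whose log2 signals were most like those of a leading probe set over the 10 arrays, group means removed, were searched over 18068 probe sets with 1 symbol, for the 7 members other than Slc6a13, and included none of the listed genes tested. The r is the highest of a large search and is given as a description only. Ptgds was most like Ociad2 (r = 0.955), Prdx3 (0.945) and Cebpzos (0.941). Dcn was most like Gabarap (r = 0.990), Sec24c (0.972) and Ldhb (0.963), and Lum most like Fer (r = 0.967), Zfp148 (0.955) and Stom (0.938). For Col1a1 they were Cacna2d1, Pkdcc and Spata2l, with r from 0.903 to 0.923, and for Col1a2 Gm8096, Safb and Ksr1, with r from 0.949 to 0.964. For Col3a1 they were Tfap2c, Lsp1 and 2900052N01Rik (r from 0.929 to 0.937), and for Slc13a4 Gm10575, Ctnnd2 and Dzip3 (r from 0.950 to 0.963).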

How the data were processed

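Total RNA of whole hippocampus was hybridised to Affymetrix Mouse 430_2.0 arrays, 1 colour and 1 mouse per array. The authors deposited MAS 5.0 signal intensities, 1 per probe set, on a linear scale, with each array scaled by a constant (in the values, a mean of 500 after trimming 2% at both ends) and no normalisation of the distribution. The labels describe the standard protocol and the methods a double round of amplification. A probe set was named where the platform annotation gave 1 symbol. The 14 members had the same symbol in RefSeq (GRCm38.p6).

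Log2 signals were compared with limma 3.58.1 (R 4.3.3, lmFit and eBayes) over 22518 probe sets, the 64 control probe sets left out, with Benjamini-Hochberg adjustment at 0.05. Single probe sets and ratios were tested by exact two-sided permutation over 252 assignments (smallest p 0.00794), and correlations over 14400 permutations within groups. The precision is limited by 5 arrays per group. Replicate numbers follow the order of the samples and only name arrays. On simulated data with 22518 probe sets limma recovered 2 of 50 changes of 1, 25 of 50 of 2, 39 of 50 of 3 and 46 of 50 of 4 on the log2 scale for High and Low Exploration. It also made 5 false calls. Simulated probe sets varied independently, without the differences in array level between the groups, so these shares need not hold for the data.

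All member probe sets were named, with the one of highest mean leading each gene, 2 genes of each list by smallest p, and the 3 genes most like each leading probe set. A gene in 2 lists was named once. The members and lists were chosen with earlier results of these data known. Alternatives covered the filter, median centring, quantile and cyclic loess normalisation, equal hybridisation controls or their level as a covariate, a pseudocount or floor of 23.0 (the 10th percentile), array weights and leaving out each array.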

Additional observations from a re-analysis of the deposited data

Results flagged for a closer look

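Col1a2 on its leading probe set, 1450857_a_at, had 1 array far from the others of its group. High Exploration replicate 2 read 8.73 on the log2 scale, while the other 4 High Exploration arrays read 9.80 to 10.01, and the gap was 0.834 of the range of the group. The test was made on 28 groups of 5 arrays, 2 for each member probe set, and chance flags about 1 in 20 groups.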

How the results depend on the processing

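The count of member probe sets that passed was 0 under every alternative listed in the methods, and 0 of the 44 correlations passed as deposited, after median centring, after quantile normalisation and at equal hybridisation controls. Both Ptgds probe sets, 1446326_at and 1423110_at of Col1a2, 1455494_at of Col1a1 and 1441506_at of Dcn kept their direction throughout. Over the 14 probe sets 30 of the values under alternatives had the opposite sign, and the cause was not tested. After median centring these were Col1a1 1423669_at (0.097), Col1a2 1450857_a_at (0.44), Col3a1 1427883_a_at (0.31) and 1427884_at (0.14) and Slc6a13 (0.33). After quantile normalisation the same 5 had 0.18, 0.085, 0.11, 0.14 and 0.37, and at equal hybridisation controls 0.17, 0.51, 0.37, 0.21 and 0.40. Cyclic loess gave 0.19 for Col1a1 1423669_at, 0.17 and 0.20 for Col3a1 and 0.43 for Slc6a13. With the hybridisation controls as a covariate Col1a2 1450857_a_at had 0.29, Dcn 1449368_at −0.65, Lum −0.30, Slc13a4 0.60 and Slc6a13 1.36. Leaving out single arrays gave ranges of −0.81 to 0.077 for Col1a1 1423669_at, −0.19 to 0.13 for Col1a2 1450857_a_at, −0.59 to 0.25 for Col3a1 1427883_a_at, −0.70 to 0.42 for Slc6a13 and 1.20 to 1.83 for Ptgds 1423859_a_at.

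Over all tested probe sets the count that passed was 3, with 2177 higher and 4622 lower at an unadjusted p under 0.05. It was 32 without a filter, 906 after median centring, 5 with cyclic loess, 366 with a pseudocount, 2186 with array weights, 0 at equal hybridisation controls (limma, 5219 higher and 887 lower at an unadjusted p under 0.05), 0 with their level as a covariate (limma, 482 higher and 1237 lower at an unadjusted p under 0.05), and 2 to 1042 when single arrays were left out, the highest without High Exploration replicate 5. Median centring turned the split to 830 higher and 76 lower, against 0 higher and 3 lower as deposited, and let 7 listed genes pass (Adamts3, Cldn11, Neurod6, Ogn, Pdgfrb, Ugt8a and Zic1, all higher), where 0 of 90 passed as deposited (20 at an unadjusted p under 0.05). No paired analysis was possible because the labels give no replicate numbers shared by the groups. Signals near those of olfactory receptors limit Slc6a13 and the weaker collagen probe sets.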
